A study of Mus musculus with 6 samples.

Results

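The 9 genes described here encode enzymes of the Krebs (TCA) cycle outside its α-ketoglutarate (αKG) node, enzymes that handle malate and aspartate, and pyruvate carboxylase. They were taken by gene symbol from the 16448 genes of the table, and all 9 had a row: *Cs*, *Suclg1*, *Suclg2*, *Sucla2*, *Fh1*, *Mdh2*, *Mdh1*, *Got1* and *Pcx*. RNA-seq was carried out on adult cardiomyocytes (CMs) from mice aged 8 to 12 weeks on a C57BL/6 background, with 3 CtrlCre and 3 Cpt1bcKO samples. Cpt1bcKO mice were αMHC-Cre pos/+;Cpt1b fl/fl, so that the muscle isoform of carnitine palmitoyltransferase, which admits long-chain fatty acids to mitochondria for oxidation, was inactivated in CMs. CtrlCre mice were αMHC-Cre pos/+;Cpt1b+/+, and both groups therefore carried the same Cre transgene. The αMHC promoter drives Cre in CMs, and the paper places the inactivation of the gene at embryonic stages. The comparison asks how transcripts of these enzymes stand in CMs that cannot use fatty acids in the usual way. The sample names carry numbers but do not state which mouse each came from, so *P* values measure the spread between these samples.

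Citrate synthase condenses acetyl-CoA, which comes from fatty acids, glucose, ketones or amino acids, with oxaloacetate and so opens the cycle. After αKG has been oxidized, succinyl-CoA ligase makes succinate together with GTP or ATP, fumarase hydrates fumarate to malate, and mitochondrial malate dehydrogenase restores oxaloacetate. In the heart the malate–aspartate shuttle, with a malate dehydrogenase and an aspartate aminotransferase on each side of the inner membrane, carries reducing equivalents from glycolysis into mitochondria. Pyruvate carboxylase refills the cycle by making oxaloacetate from pyruvate.

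Between Cpt1bcKO and CtrlCre CMs, 0 of the 9 genes passed an adjusted *P* value of 0.05 in limma with Benjamini–Hochberg adjustment, compared with 1.57% of the 11364 genes tested. None reached an unadjusted *P* value below 0.05 either, compared with 13.9% of the genes tested. A replicate block for same-numbered samples, whose pairing the sample names do not state, put 4 below it (*Mdh2*, *Mdh1*, *Cs* and *Fh1*), compared with 20.8%. Leaving out Cpt1bcKO sample 1 put 3 below it (*Mdh2*, *Mdh1* and *Fh1*), compared with 19.9%. The estimates were lower in Cpt1bcKO for 8 of 9 genes, with *Pcx* as the exception, whereas 50.2% of all genes tested had an estimate below 0, and rescaling the samples after removal of mitochondrial-encoded and rRNA genes turned *Suclg1* to the other side. The median log2 fold change of the 9 genes was −0.21, and that of all genes tested was −0.001. Leaving out 1 sample moved the median of the 9 between −0.32 (without Cpt1bcKO sample 1) and −0.11 (without CtrlCre sample 1 or Cpt1bcKO sample 3). It was −0.10 after the rescaling, where that of all genes was 0.11. For 8 of the 9 genes the values of the groups overlapped. The exception was *Got1*, and groups did not overlap, with Cpt1bcKO lower, for 9.60% of the genes tested.

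*Cpt1b* itself stood at 1861, 893 and 1443 in CtrlCre and at 211, 353 and 285 in Cpt1bcKO samples 1, 2 and 3, a log2 fold change of −2.27 (95% confidence interval −2.86 to −1.68, limma adjusted *P* = 0.00338). The values are read counts divided by a size factor of each sample, and without mitochondrial-encoded and rRNA genes they summed to between 3146414 and 3551692 per sample. The mitochondrial rRNA gene *mt-Rnr2* took 64.6%, 64.4% and 63.2% of the sum in CtrlCre and 61.8%, 72.6% and 80.8% in Cpt1bcKO samples 1, 2 and 3. Sample 1 of each group differed from the others in sex-linked transcripts, with *Xist* at 957 in CtrlCre and 1080 in Cpt1bcKO and *Ddx3y* at 0 in both, against *Xist* at no more than 78 and *Ddx3y* at no less than 576 in the other 4 samples. The CM label was checked against 10 CM markers, whose summed values ran from 556724 to 647935 in CtrlCre and from 364395 to 585124 in Cpt1bcKO. Of these markers 2 were lower in Cpt1bcKO at an unadjusted *P* value below 0.05 and 0 at an adjusted one. The largest, *Ttn*, was at 229054, 395949 and 364082 in CtrlCre and at 151007, 340512 and 360030 in Cpt1bcKO. Within each group the CM sums had the order of *Ttn*, so they do not rank samples by CM content. The 7 fibroblast markers summed to between 493 and 780 in CtrlCre and between 1092 and 1324 in Cpt1bcKO, all 7 were higher at an unadjusted and 2 at an adjusted *P* value below 0.05, and none was at 0 in all samples. Endothelial markers (6 genes) summed to between 1370 and 2930 in CtrlCre and between 2613 and 3125 in Cpt1bcKO, and 1 was higher at an unadjusted *P* value below 0.05. The 4 smooth muscle and pericyte markers summed to between 525 and 1771 in CtrlCre and between 988 and 1439 in Cpt1bcKO. CtrlCre sample 1 was the lowest sample for these and for the fibroblast and endothelial markers. Leukocyte markers stayed between 31 and 56, atrial markers between 18 and 121 and red blood cell markers between 1 and 20 in all samples, and adipocyte markers were not analysed here. The part of these differences in the values of the 9 genes was not tested, and in bulk RNA fewer cells of a type and less RNA per cell cannot be told apart.

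Windows of 250 bases upstream of the RefSeq start were taken on GRCm38.p6, in which all 9 genes matched, *Pcx* with a pair of starts, giving 10 windows. RefSeq starts differ from the gene bounds of the table, so 5 windows lie wholly outside the gene as listed there (*Fh1*, *Suclg2*, *Cs*, *Got1* and the first of *Pcx*), and the other 5 lie in part (*Mdh2*, *Suclg1*, *Sucla2*) or in full (*Mdh1*, the other *Pcx* window) inside it. The windows of *Fh1* and *Mdh2* are shown because these genes had the largest estimated decreases, that of *Got1* because its groups did not overlap, and that of *Pcx* because it alone had a higher estimate. Sequences run 5′ to 3′ on the strand of the gene and end at the base before the RefSeq start, except that of *Mdh2*, which is shown only for the 81 bases outside the gene as listed in the table. Capitals mark the nuclear receptor core hexamer AGGTCA on either strand in *Fh1* and *Got1*, the palindrome core CTCGCGAG in *Mdh2*, and the E-box CACGTG in *Pcx*.
Fh1, chr1:175625636-175625885, minus strand: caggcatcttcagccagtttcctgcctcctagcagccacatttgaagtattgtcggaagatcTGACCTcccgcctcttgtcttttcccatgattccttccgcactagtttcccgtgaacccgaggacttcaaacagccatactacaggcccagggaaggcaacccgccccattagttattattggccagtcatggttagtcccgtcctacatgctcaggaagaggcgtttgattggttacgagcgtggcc
Mdh2, chr5:135778399-135778479, plus strand: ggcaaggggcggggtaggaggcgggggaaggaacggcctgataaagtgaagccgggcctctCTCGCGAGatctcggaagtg
Got1, chr19:43524606-43524855, minus strand: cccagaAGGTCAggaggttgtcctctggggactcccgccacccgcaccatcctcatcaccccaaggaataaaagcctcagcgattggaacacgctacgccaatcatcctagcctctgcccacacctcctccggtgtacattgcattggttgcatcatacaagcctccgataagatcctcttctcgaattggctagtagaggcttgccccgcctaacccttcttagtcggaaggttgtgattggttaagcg
Pcx, chr19:4510222-4510471, plus strand: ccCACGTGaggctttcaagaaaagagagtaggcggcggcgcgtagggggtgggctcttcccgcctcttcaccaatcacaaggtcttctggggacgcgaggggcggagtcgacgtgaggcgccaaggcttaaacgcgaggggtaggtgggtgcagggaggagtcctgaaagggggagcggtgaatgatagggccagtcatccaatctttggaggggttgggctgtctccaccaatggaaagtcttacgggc

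Motifs were searched as exact letters on both strands of the whole windows, and positions count from the RefSeq start. The estrogen-related receptor element TCAAGGTCA, which contains the AGGTCA hexamer and is known from many genes of oxidative metabolism, was in 0 of the 10 windows and in 0.387% of 32851 RefSeq windows of the same length. AGGTCA was in 3 of the 10 (*Fh1*, *Sucla2* and *Got1*) and in 14.0% of all windows. The ETS site CCGGAAGT and the NRF1 core GCGCATGC were each in 0 of the 10, and in 2.88% and 2.26% of all windows. The cAMP response element TGACGTCA was in the *Mdh2* window alone among the 10, at −127 to −120, which is inside the gene bounds of the table, and in 1.55% of all windows. CACGTG was in 1 *Pcx* window, at −248 to −243, and in 6.02% of all windows. The GC box GGGCGG, which is not in capitals in the sequences, was in 7 of the 10 and in 32.7% of all windows. CTCGCGAG occurred at −189 to −182, −62 to −55 and −28 to −21 of *Mdh2*, the first of these outside and the others inside the gene bounds of the table, in no other of the 10 windows and in 0.761% of all windows, and it was searched after the *Mdh2* sequence had been read.

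*Cs* (ENSMUSG00000005683, GRCm38 chr10:128337734-128362479) encodes citrate synthase. Its values were 4087, 3449 and 3319 in CtrlCre samples 1, 2 and 3 and 3466, 3198 and 2525 in Cpt1bcKO samples 1, 2 and 3. Cpt1bcKO sample 3 was the lowest of all and CtrlCre sample 1 the highest, while Cpt1bcKO sample 1 stood above CtrlCre samples 2 and 3. Means were 3618 ± 411 (SD, n = 3) and 3063 ± 485 (SD, n = 3), and the log2 fold change on the log2(value + 1) scale was −0.25 (95% confidence interval −0.60 to 0.11, limma with Benjamini–Hochberg adjusted *P* = 0.542).

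Succinyl-CoA ligase is an α subunit, encoded by *Suclg1*, joined to a β subunit that sets the nucleotide, GTP for *Suclg2* and ATP for *Sucla2*. *Suclg1* (ENSMUSG00000052738, GRCm38 chr6:73248382-73276911) was at 1137, 961 and 928 in CtrlCre and at 1058, 856 and 978 in Cpt1bcKO. Its groups were interleaved, with means of 1009 ± 112 and 964 ± 102 (SD, n = 3 each). *Suclg2* (ENSMUSG00000061838, GRCm38 chr6:95473009-95718800) was at 309, 316 and 263 in CtrlCre and at 306, 280 and 237 in Cpt1bcKO. In each group sample 3 was the lowest, and the means were 296 ± 28.8 and 274 ± 34.8 (SD, n = 3 each). *Sucla2* (ENSMUSG00000022110, GRCm38 chr14:73552665-73596142) was at 2795, 2315 and 1979 in CtrlCre and at 2745, 1893 and 1847 in Cpt1bcKO. Sample 1 was the highest in each group, and these 2 samples differed by less than the CtrlCre samples did among themselves. The log2 fold changes were −0.06 (95% confidence interval −0.39 to 0.26) for *Suclg1*, −0.11 (−0.47 to 0.25) for *Suclg2* and −0.14 (−0.56 to 0.28) for *Sucla2*, with limma adjusted *P* values of 0.882, 0.806 and 0.794. For *Suclg1* the estimate was 0.02 without CtrlCre sample 1 and also 0.02 without Cpt1bcKO sample 2. Leaving out 1 sample moved *Suclg2* between −0.20 (without CtrlCre sample 3) and −0.01 (without Cpt1bcKO sample 3), and *Sucla2* between −0.32 (without Cpt1bcKO sample 1) and −0.01 (without CtrlCre sample 1).

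*Fh1* (ENSMUSG00000026526, GRCm38 chr1:175600374-175625635) encodes fumarase, which serves the cycle in mitochondria and also acts in the cytosol. It was at 1697, 1398 and 1432 in CtrlCre and at 1539, 998 and 1101 in Cpt1bcKO. Cpt1bcKO samples 2 and 3 lay below all CtrlCre samples, whereas Cpt1bcKO sample 1 lay above CtrlCre samples 2 and 3. The Cpt1bcKO mean, 1213 ± 287 (SD, n = 3), was 80.4% of the CtrlCre mean, 1509 ± 164 (SD, n = 3). Its log2 fold change of −0.34 (95% confidence interval −0.73 to 0.06) was the lowest of the 9, with a limma *P* of 0.0886 and an adjusted *P* of 0.438.

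*Mdh2* (ENSMUSG00000019179, GRCm38 chr5:135778480-135790391) encodes the mitochondrial malate dehydrogenase. Values were 4306, 2809 and 2590 in CtrlCre and 3512, 2144 and 2090 in Cpt1bcKO. Sample 1 stood far above samples 2 and 3 in each group, and apart from sample 1 every Cpt1bcKO value was below every CtrlCre value. The means were 3235 ± 934 and 2582 ± 806 (SD, n = 3 each), giving a log2 fold change of −0.33 (95% confidence interval −0.87 to 0.20, limma adjusted *P* = 0.586). *Mdh1* (ENSMUSG00000020321, GRCm38 chr11:21556787-21572193) encodes the cytosolic enzyme, which reduces oxaloacetate to malate for the shuttle. It was at 4394, 3687 and 3999 in CtrlCre and at 3876, 3120 and 3236 in Cpt1bcKO, so that only Cpt1bcKO sample 1 reached into the CtrlCre range. The means were 4027 ± 354 and 3411 ± 407 (SD, n = 3 each), giving a log2 fold change of −0.24 (95% confidence interval −0.57 to 0.08, limma adjusted *P* = 0.497). An exon of *Wdpcp* on the opposite strand overlaps *Mdh1* in GENCODE vM21, and that gene had a mean value of 27.8.

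Leaving out Cpt1bcKO sample 1 moved the estimates to −0.52 for *Fh1*, −0.57 for *Mdh2* and −0.34 for *Mdh1*, with unadjusted limma *P* values of 0.00532, 0.0166 and 0.038 and adjusted ones of 0.0933, 0.152 and 0.218. Leaving out sample 1 of both groups, an alternative chosen after the data were seen, gave −0.43, −0.35 and −0.27 with adjusted *P* values of 0.119, 0.176 and 0.275. These were the 3 members below an unadjusted 0.05 in either setting, and none passed after adjustment. Estimates also moved away from 0 without CtrlCre sample 2 (−0.39, −0.41 and −0.30 for *Fh1*, *Mdh2* and *Mdh1*) and without CtrlCre sample 3 (−0.37, −0.47 and −0.25). They moved toward 0 in the remaining leave-outs. Without CtrlCre sample 1 they were −0.25, −0.11 and −0.18 for *Fh1*, *Mdh2* and *Mdh1*, and without Cpt1bcKO sample 2 they were −0.21, −0.22 and −0.18. Without Cpt1bcKO sample 3 they were −0.28, −0.20 and −0.21, and *Cs* was at −0.11. Among all genes, 19.9% were below an unadjusted 0.05 without Cpt1bcKO sample 1 and 17.8% without sample 1 of both groups.

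*Got1* (ENSMUSG00000025190, GRCm38 chr19:43499752-43524605) encodes the cytosolic aspartate aminotransferase, which converts aspartate and αKG to oxaloacetate and glutamate. Its values were 1973, 1973 and 1680 in CtrlCre and 1679, 1575 and 1588 in Cpt1bcKO. All Cpt1bcKO values were lower than all CtrlCre values, but the nearest ones, 1680 and 1679, were nearly equal. The means were 1875 ± 169 and 1614 ± 56.7 (SD, n = 3 each), giving a log2 fold change of −0.21 (95% confidence interval −0.51 to 0.08, limma adjusted *P* = 0.519).

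*Pcx* (ENSMUSG00000024892, GRCm38 chr19:4510472-4621752) was by far the lowest member, at 52, 104 and 80 in CtrlCre and 70, 96 and 93 in Cpt1bcKO. All Cpt1bcKO values lay within the CtrlCre range, and sample 1 was the lowest in each group, opposite to most other members. The means were 78.7 ± 26.0 and 86.3 ± 14.2 (SD, n = 3 each). Its estimate of 0.17 on the log2 scale had a wide 95% confidence interval, −0.43 to 0.77 (limma adjusted *P* = 0.822), and it was −0.09 without CtrlCre sample 1. Where steps between low values gave the value of 1 read, which was so in 4 samples, the *Pcx* values rested on 72 to 115 reads.

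The plot of values by sample shows these 9 genes side by side.

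**Figure D1:**
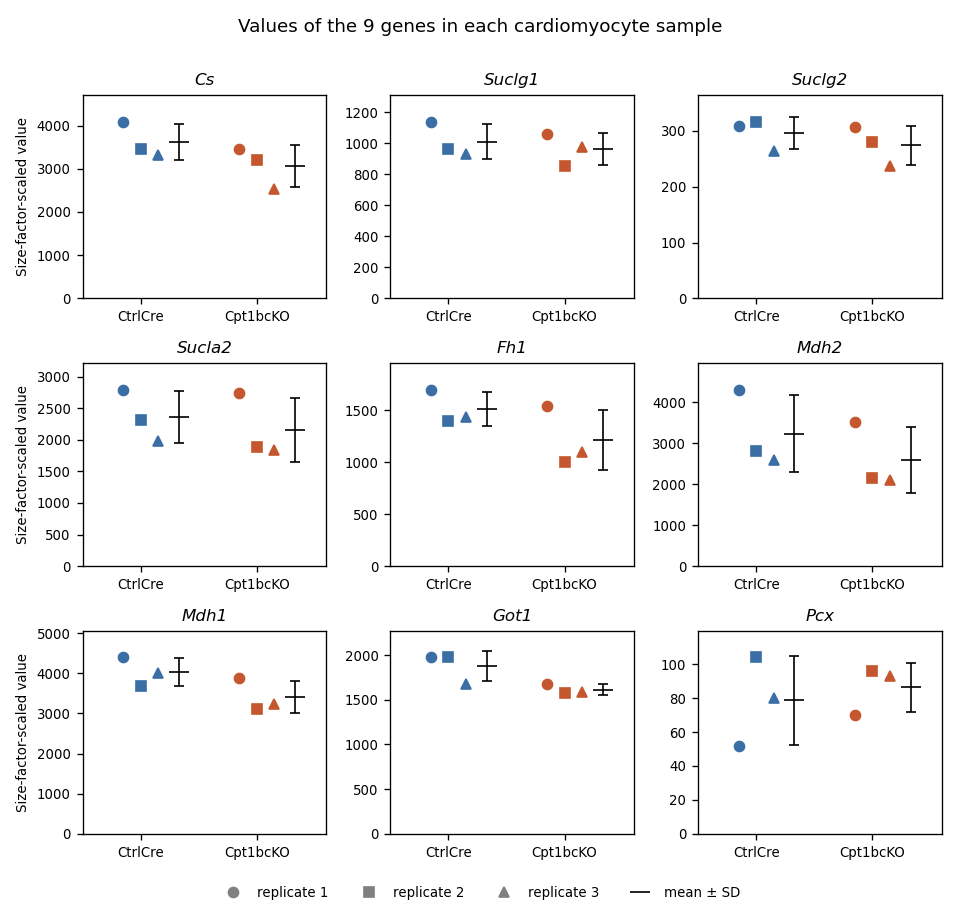
Size-factor-scaled values (linear axes from 0, no unit) of the 9 genes in CtrlCre (blue) and Cpt1bcKO (orange) CMs, with 1 symbol per replicate and the mean ± SD beside the points (n = 3). The groups overlap in every panel except that of *Got1*, where 1680 in CtrlCre adjoins 1679 in Cpt1bcKO, and sample 1 (circle) is the highest of its group in most panels but the lowest for *Pcx*.

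The 95% intervals give a range for each fold change under the deposited scaling, with all 6 samples. They were not widened for the choice of scaling or of samples. After rescaling without mitochondrial-encoded and rRNA genes, *Suclg1* was at 0.05 rather than −0.06 on the log2 scale. For every member the interval of the fold change included 1, and on a linear scale it reached down to 0.549-fold for *Mdh2*, 0.603-fold for *Fh1* and 0.658-fold for *Cs*. Decreases beyond 0.763-fold and increases beyond 1.20-fold lay outside the interval of *Suclg1*, and those of *Got1* ran from 0.704-fold to 1.06-fold. *Pcx* had the widest range, from 0.744-fold to 1.71-fold.

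Levels were compared between genes after division by the joint length of all annotated exons of each gene in GENCODE vM21. That length can exceed the length of the transcripts present in CMs, and the order below depends on it. In CtrlCre the order was *Mdh1* with 1569 ± 138 per kb (SD, n = 3), *Mdh2* with 908 ± 262, *Got1* with 739 ± 66.6, *Cs* with 626 ± 71.1, *Sucla2* with 593 ± 103, *Fh1* with 445 ± 48.3, *Suclg1* with 218 ± 24.3, *Suclg2* with 64.0 ± 6.23 and *Pcx* with 16.6 ± 5.48. From *Mdh2* to *Fh1*, each neighbour in this order overlapped the next in its sample values. *Mdh1* above this run, and *Suclg1*, *Suclg2* and *Pcx* below it, did not overlap their neighbours. In Cpt1bcKO the order was the same except that *Sucla2*, with 542 ± 127 per kb, came before *Cs*, with 530 ± 83.9 per kb, and these overlapped. Transcripts of the ATP-forming β subunit thus exceeded those of the GTP-forming one in every sample of either group. The cytosolic malate dehydrogenase exceeded the mitochondrial one per length in every sample, with 2567 annotated exon bases for *Mdh1* and 3562 for *Mdh2*. Before division by length, *Mdh1* to *Mdh2* was only 1.02 in CtrlCre sample 1 and 1.1 in Cpt1bcKO sample 1.

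**Figure D2:**
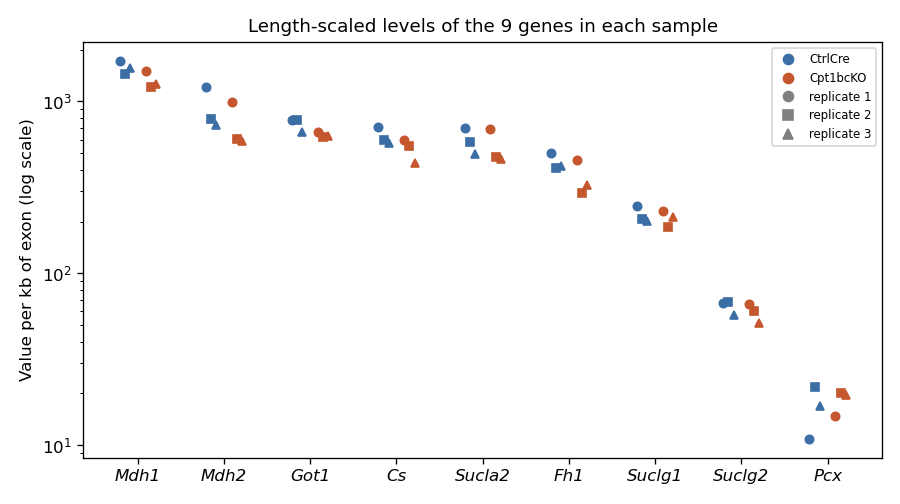
Value per kb of exon (log axis) of the 9 genes in each sample, CtrlCre in blue and Cpt1bcKO in orange, with 1 symbol per replicate, ordered by the CtrlCre mean. *Mdh1* is highest at 1569 per kb in CtrlCre and *Pcx* lowest at 16.6 per kb, and the spread between genes is far larger than that between groups.

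To compare enzymes that share a reaction or a substrate, 4 ratios were formed within each sample and tested with an exact two-sided permutation test over the 6 samples, for which 0.1 is the smallest possible *P*. Ratios of values are not corrected for length. *Suclg2* to *Sucla2* was 0.111, 0.137 and 0.133 in CtrlCre and 0.111, 0.148 and 0.128 in Cpt1bcKO, a difference in log2 ratio of 0.03 (exact *P* = 0.9, Benjamini–Hochberg adjusted over the 4 ratios *P* = 0.9). *Mdh1* to *Mdh2* was 1.02, 1.31 and 1.54 in CtrlCre and 1.10, 1.46 and 1.55 in Cpt1bcKO (difference 0.09, exact *P* = 0.6, adjusted *P* = 0.8). These values show a balance of isoforms that varied more among samples of a group than between the groups. *Got1* to *Got2*, the cytosolic and mitochondrial aspartate aminotransferases, was 2.11, 2.90 and 2.61 in CtrlCre and 2.19, 3.68 and 3.77 in Cpt1bcKO. The difference in log2 ratio was 0.31 (exact *P* = 0.3, adjusted *P* = 0.8), with Cpt1bcKO samples 2 and 3 above all CtrlCre samples and sample 1 among them. *Pcx* to *Cs*, the enzymes that make and use oxaloacetate, was 0.0127, 0.0302 and 0.0241 in CtrlCre and 0.0202, 0.03 and 0.0368 in Cpt1bcKO (difference 0.42, exact *P* = 0.5, adjusted *P* = 0.8). All 4 ratios overlapped between the groups.

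Among themselves, the members other than *Pcx* varied together over the 6 samples. The log2 values of these 8 genes had pairwise Pearson's *r* from 0.406 to 0.972 with a median of 0.764 over 28 pairs, highest for *Fh1* with *Mdh1*. *Pcx* was correlated negatively with each of the other 8, from −0.85 with *Mdh2* to −0.334 with *Suclg2*. These coefficients are descriptions over 6 samples that share library and size factor between genes. Sample 1 was the highest CtrlCre sample for 7 of 9 members (tied with sample 2 for *Got1*) and the highest Cpt1bcKO sample for 8 of 9. It was also the sample with high *Xist* in each group, so that replicate number and the sex-linked difference cannot be told apart here. CtrlCre sample 1 also had the lowest fibroblast (493), endothelial (1370) and smooth muscle and pericyte (525) marker sums, whereas Cpt1bcKO sample 1 did not (1324, 3107 and 1439). The part of this in the values was not tested. Averaged over the 9 genes, the log2 difference from the CtrlCre mean was 0.11, 0.01 and −0.12 in CtrlCre and 0.02, −0.24 and −0.28 in Cpt1bcKO samples 1, 2 and 3. Cpt1bcKO samples 2 and 3 were thus below every control, and Cpt1bcKO sample 1 was not. The same samples 2 and 3 had the highest shares of *mt-Rnr2*, 72.6% and 80.8%, and the part of this in their lower values was not tested.

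The 5 genes with the pattern most like the mean standardized log2 value of the 9, out of 6788 genes whose mean value was 50 or more, were *Idh3g* (*r* = 0.9955), *Rnft1* (0.9922), *Slc25a51* (0.9911), *Sdha* (0.9909) and *Fbxo28* (0.9907), each over 6 samples. *Idh3g*, a subunit of the NAD-dependent isocitrate dehydrogenase, was at 1497, 1250 and 1092 in CtrlCre and at 1281, 934 and 855 in Cpt1bcKO. *Sdha*, the flavoprotein subunit of succinate dehydrogenase, was at 5463, 4212 and 3656 in CtrlCre and at 4405, 2827 and 2901 in Cpt1bcKO. *Slc25a51*, the mitochondrial NAD carrier, was at 398, 344 and 281 in CtrlCre and at 327, 253 and 241 in Cpt1bcKO. *Rnft1* was at 94, 86 and 78 in CtrlCre and at 84, 70 and 66 in Cpt1bcKO. *Fbxo28* was at 89, 80 and 58 in CtrlCre and at 76, 48 and 43 in Cpt1bcKO. In all 5, as in the member profile, Cpt1bcKO sample 1 lay within the CtrlCre range. The 5 genes were chosen by likeness to that profile in the same samples, so this shared pattern follows from the choice.

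The remaining genes of the cycle were described in the same way. Of 12 genes, 10 had lower estimates in Cpt1bcKO, their median log2 fold change was −0.22, 1 had an unadjusted *P* value below 0.05 (13.9% of all genes tested) and none an adjusted one (1.57%). Leaving out 1 sample moved that median between −0.30 (without CtrlCre sample 2) and −0.13 (without CtrlCre sample 1). The unadjusted count then ran from 0 to 5, the 5 being without Cpt1bcKO sample 1, where 19.9% of all genes were below 0.05. With a replicate block it was 6, compared with 20.8% of all genes. *Sdhc*, a membrane anchor of succinate dehydrogenase, was at 989, 687 and 721 in CtrlCre and 754, 485 and 490 in Cpt1bcKO (log2 fold change −0.48, 95% confidence interval −0.95 to −0.02, limma adjusted *P* = 0.339). With the block its limma adjusted *P* was 0.0313, and 5.31% of all genes passed. *Idh3a*, the catalytic subunit of the NAD-dependent isocitrate dehydrogenase, was at 3831, 3384 and 3110 in CtrlCre and at 2793, 2849 and 2868 in Cpt1bcKO without overlap (−0.27, 95% confidence interval −0.57 to 0.03, limma adjusted *P* = 0.405). Groups did not overlap for 2 of these 12 genes, compared with 18.7% of all genes tested in either direction.

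The other genes of the malate–aspartate and glycerol phosphate shuttles went in either direction, with 3 of 7 estimates lower and a median of 0.02, and 1 of the 7 was below an unadjusted 0.05, compared with 13.9% of all genes tested. *Gpd1*, the cytosolic glycerol-3-phosphate dehydrogenase, was at 195, 161 and 121 in CtrlCre and at 416, 222 and 232 in Cpt1bcKO, and every Cpt1bcKO value exceeded every CtrlCre value. Its log2 fold change was 0.83 (95% confidence interval 0.24 to 1.41, limma adjusted *P* = 0.186). *Got2* was at 937, 681 and 643 in CtrlCre and at 765, 428 and 421 in Cpt1bcKO (−0.52, 95% confidence interval −1.06 to 0.01, limma adjusted *P* = 0.368). Without Cpt1bcKO sample 1, *Got2* was at −0.81 with a limma adjusted *P* of 0.0433. Leaving out any other single sample gave none of the 7 an adjusted *P* value below 0.05. After rescaling without mitochondrial-encoded and rRNA genes, *Got2* was at −0.41 (limma adjusted *P* = 0.48). With a replicate block, *Gpd1* and *Got2* had limma adjusted *P* values of 0.015 and 0.0335, and 5.31% of all genes passed.

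Routes that feed or drain the cycle were represented by 17 genes, of which 16 passed the filter, 8 with a higher and 8 with a lower estimate (median −0.01). An unadjusted *P* value below 0.05 was found for 6 of them, 2 higher and 4 lower, compared with 13.9% of all genes tested, and none passed adjustment, compared with 1.57%. With at least 10 required in every sample, the unadjusted count was 5, compared with 14.2% of all genes, and the median was 0.04. *Mut*, the methylmalonyl-CoA mutase that delivers succinyl-CoA, was at 1054, 992 and 914 in CtrlCre and at 771, 590 and 604 in Cpt1bcKO (−0.60, 95% confidence interval −0.93 to −0.26, limma adjusted *P* = 0.0933). *Gpt*, an alanine aminotransferase, was at 115, 84 and 81 in CtrlCre and at 64, 47 and 56 in Cpt1bcKO (−0.73, limma adjusted *P* = 0.177). In neither gene did the groups overlap, and without Cpt1bcKO sample 1 *Mut* was at −0.72 with a limma adjusted *P* of 0.0276. The other 4, named after their values were seen, were the malic enzymes *Me2* (0.92) and *Me1* (0.52), the mitochondrial phosphoenolpyruvate carboxykinase *Pck2* (−1.27) and the mitochondrial alanine aminotransferase *Gpt2* (−0.53), whose limma adjusted *P* values ran from 0.205 to 0.344. *Me2* and *Pck2* were low, at 30 to 80 and 5 to 19. *Pck2* was at 17, 19 and 17 in CtrlCre and at 10, 5 and 6 in Cpt1bcKO. It passed the filter through its CtrlCre values, so its lower estimate is not separate from the filter. Without Cpt1bcKO sample 3, *Me2* was at 1.26 with a limma adjusted *P* of 0.0472. With a replicate block, *Mut* and *Me1* had limma adjusted *P* values of 0.0125 and 0.0301, and 5.31% of all genes passed.

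**Figure D3:**
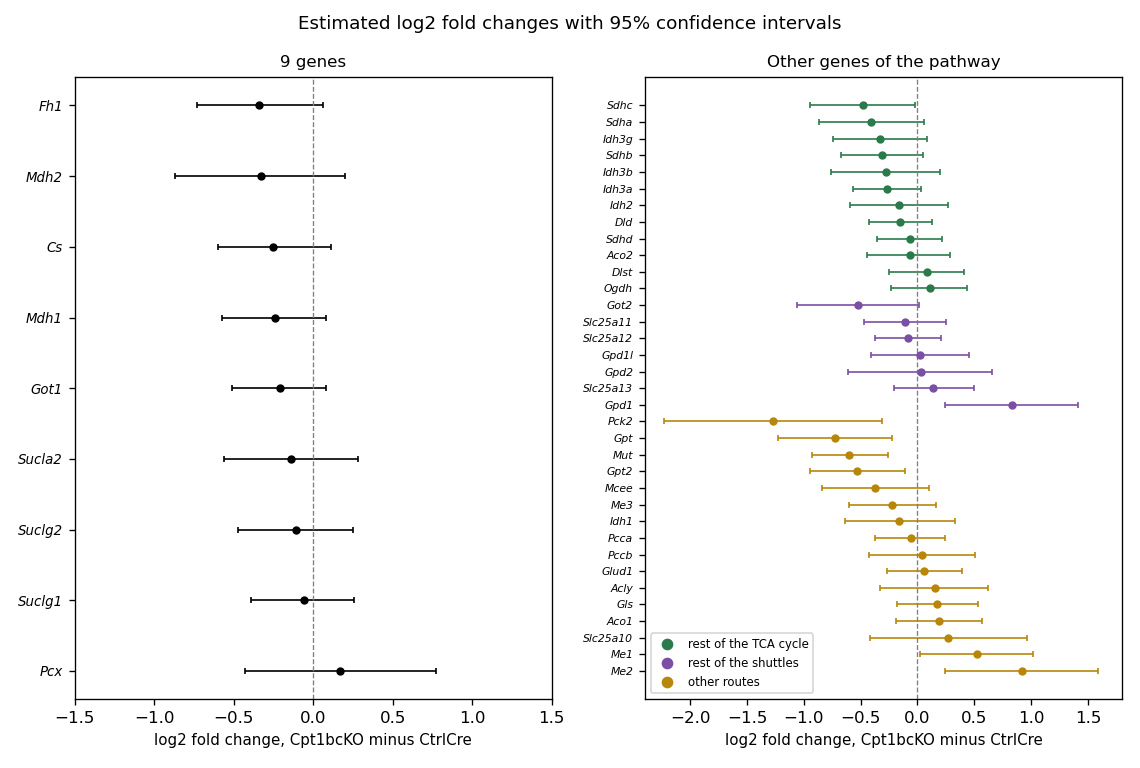
Estimated log2 fold change (Cpt1bcKO minus CtrlCre, log2(value + 1) scale) with its 95% confidence interval from limma (n = 3 per group) for the 9 genes (left) and the other genes of the pathway that passed the filter (right, coloured by list), with unequal horizontal axes. All 9 intervals on the left include 0, from *Fh1* at −0.34 to *Pcx* at 0.17, and on the right those of *Sdhc*, *Gpd1*, *Mut*, *Gpt*, *Gpt2*, *Pck2*, *Me1* and *Me2* do not. *Pck2* passed the filter through its CtrlCre values.

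**Figure D4:**
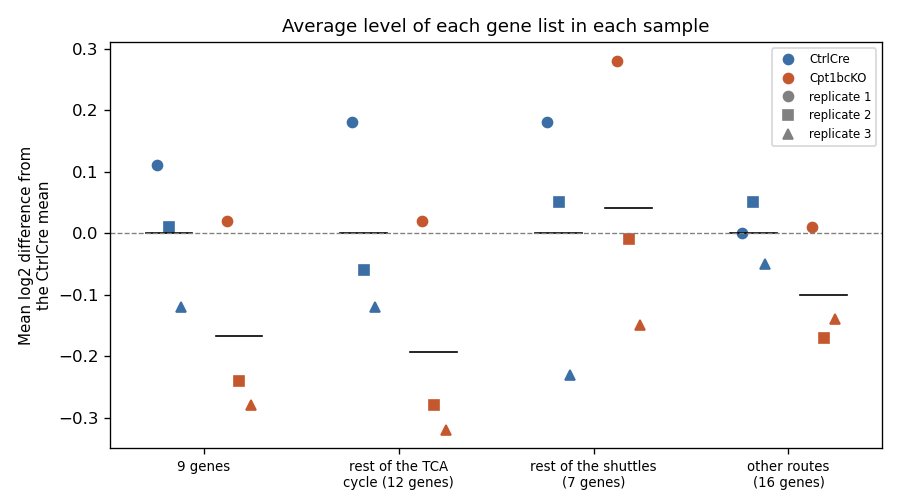
Mean log2 difference from the CtrlCre mean of each gene list in each sample, with 1 symbol per replicate, CtrlCre in blue, Cpt1bcKO in orange and a line at the group mean. For the 9 genes and for the rest of the Krebs cycle, Cpt1bcKO samples 2 and 3 lie lowest (−0.24 and −0.28, and −0.28 and −0.32), while Cpt1bcKO sample 1 is at 0.02 in both lists.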

How the data were processed

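RNA-seq of ventricular CMs isolated by perfusion digestion was analysed in 3 CtrlCre and 3 Cpt1bcKO samples. The authors trimmed single-end reads with Trimmomatic 0.36, aligned them to mm10 (GRCm38.p5) with STAR 2.5.4b, counted exonic reads per gene with featureCounts 1.6.0, leaving out reads on several genes or regions, and scaled them with DESeq2 1.14.1. The deposited signal values are these counts divided by a size factor of each sample and rounded, so they are not raw counts. The annotation release and the use of strand are not given in the sources used here. Columns with the group means, fold changes and *P* values of the authors were not used.

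Values were tested as log2(value + 1) with limma 3.58.1 in R 4.3.3 (lmFit, eBayes with trend, no block), for genes with at least 10 in at least 3 samples, with Benjamini–Hochberg adjustment over 11364 genes. The steps were tested on simulated data. Python 3.11.15, numpy 2.4.6, pandas 2.3.3 and matplotlib 3.10.9 served for tables, exact permutation tests and figures. In 4 samples the spacing of low values gave 14.9 to 24.5 M counted reads, with a single read worth 0.68 to 1.29, and in the other 2 it could not be resolved.

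The members and lists were chosen with earlier results of these data known. Named are all 9 members, *Cpt1b*, in each list the genes with an adjusted *P* below 0.05 or otherwise the 2 lowest *P* values, and the 5 genes most like the members. Alternatives were other pseudocounts (0.5 and 5), filters, scalings, 1 prior variance, a replicate block and leaving out each sample. Coordinates of genes are those of the table.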

Additional observations from a re-analysis of the deposited data

How the results depend on the processing

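No member reached an adjusted *P* value below 0.05 in limma under any of the 15 alternatives, and of 135 member estimates 131 kept their sign. *Suclg1* was at 0.05 when samples were rescaled after removal of mitochondrial-encoded and rRNA genes, which shifted the median of all genes to 0.11, moved the median of the other routes to 0.10, and left 0 rather than 1 gene of the rest of the Krebs cycle below an unadjusted 0.05. The member median was −0.10 in that scaling and −0.21 relative to all genes, as before, and the median of the rest of the cycle was −0.10. With 1 prior variance 41 rather than 178 genes were called among all and 0 in the rest of the cycle at an unadjusted 0.05, and without a filter the shuttles had 2.

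Deviations from the group mean in same-numbered samples had *r* of 0.376, 0.255 and 0.0684 across genes. Samples 3 correlated better with samples 2 of the other group (0.119 and 0.147). Deviations within a group sum to 0, so these coefficients depend on one another and cannot show which samples are paired. With a replicate block for these numbers, 603 of all genes reached an adjusted and 2362 (20.8%) an unadjusted *P* below 0.05, 4 members reached an unadjusted and 0 an adjusted *P* below 0.05, and the adjusted calls were 1 in the rest of the cycle (*Sdhc*, 0.0313), 2 in the shuttles (*Gpd1*, 0.015, and *Got2*, 0.0335) and 2 in the other routes (*Mut*, 0.0125, and *Me1*, 0.0301), with unadjusted counts of 6 in the rest of the cycle and 2 in the shuttles.

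Leaving out 1 sample gave 40 (without Cpt1bcKO replicate 2) to 305 (without Cpt1bcKO replicate 1) adjusted and 972 to 2208 unadjusted calls among all genes. In the same settings, member medians ran from −0.32 to −0.11 with 0 to 3 unadjusted calls, *Suclg1* from −0.13 to 0.02 and *Pcx* from −0.09 to 0.40. The rest of the cycle had 0 to 5 unadjusted calls, the shuttles 0 to 1 adjusted and 1 to 2 unadjusted with medians from −0.14 to 0.12, and the other routes 0 to 1 adjusted with medians from −0.14 to 0.06. The log2 ratio differences ran from −0.08 to 0.13 for *Suclg2* to *Sucla2* from −0.07 to 0.24 for *Mdh1* to *Mdh2*, from 0.17 to 0.56 for *Got1* to *Got2* and from 0.06 to 0.68 for *Pcx* to *Cs*, the highest *Got1* to *Got2* value (without Cpt1bcKO replicate 1) having an exact *P* of 0.1, the smallest possible. Without replicate 1 of both groups, 3 members, 5 genes of the rest of the cycle and 2 of the shuttles reached an unadjusted, and 1 gene each of the shuttles and the other routes an adjusted *P* below 0.05, as did 1924 (17.8%) and 246 (2.27%) of all genes. The cause of these changes was not tested. *Pcx* had the widest interval of the 9.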
